A study of Mus musculus with 10 samples.

Results

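The genes followed here move cholesterol into, through and out of macrophages and were measured by RNA-seq of sorted mouse pancreatic macrophages. They were chosen by symbol: Apoe, Apoc2, Abca1, Abcg1, Nr1h3, Pltp, Lpl, Lipa, Soat1 and Npc2. Of these 10 genes, 9 had a row among the 12535 genes of the deposited table, and Apoc2 was not analysed here. All 9 passed the filter on low values (at least 1 FPKM in at least 3 of the 10 libraries), and none was below 6.51 FPKM in any library, so no gene entered through a single group. FPKM counts sequenced fragments, scaled by gene length and by library size, and the levels below are on that scale.

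Macrophages were sorted as CD45+CD11b+F4/80+ cells, the surface markers of leukocytes, myeloid cells and macrophages. Tumour-associated macrophages (TAM) came from pancreatic tumours 14 days after orthotopic implantation of MT4, an organoid line of KPC pancreatic adenocarcinoma. The cKO-labelled TAM (n = 3) were from mice with the genotype label C57/BL6 Ahr fl/fl Lys M, in which Cre from the lysozyme 2 (Lyz2) locus is meant to delete the floxed gene of the aryl hydrocarbon receptor, AhR. The control TAM (n = 3) were from C57/BL6 Ahr fl/fl mice, so both TAM groups carried the floxed allele. The resident macrophages (n = 4) were from the healthy pancreas of C57/BL6 WT mice, which differ from the control TAM in the floxed allele as well as in the tumour. Cre driven from Lyz2 also acts in neutrophils and other myeloid cells, and all tumours grew from 1 line. The labels give mouse numbers for the groups but do not tie a library to an animal, so the p-values measure only the spread between these libraries, which may be technical.

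Macrophages that take up dying cells and lipoproteins must dispose of the cholesterol. Lysosomal acid lipase (Lipa) splits the esters and NPC2 hands the free sterol to the lysosomal membrane. Excess sterol is either stored again as ester by SOAT1 or converted to oxysterols, which activate the liver X receptor LXRα (Nr1h3). LXR, paired with RXR, switches on the transporters ABCA1 and ABCG1, the acceptor protein apolipoprotein E (Apoe), the phospholipid transfer protein (Pltp) and lipoprotein lipase (Lpl), so that cholesterol leaves the cell on lipid particles. AhR is a ligand-activated transcription factor that binds DNA at the core motif GCGTG.

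Across the 3 groups the genes did not move as 1 block. Apoe, Pltp and Lpl were lowest in control TAM and higher in both cKO-labelled TAM and resident macrophages. Abca1 and Lipa were high in resident macrophages and low in both kinds of TAM. Nr1h3, Abcg1 and Soat1 were higher in both kinds of TAM than in resident cells, and Npc2 had mean levels between 166 and 180.5 FPKM.

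The promoter windows of Abca1, Apoe and Pltp are shown because these genes are known LXR targets with different patterns here. Each runs 5′ to 3′ on the gene's own strand from 250 bases before to 50 bases after a RefSeq transcript start in GRCm38.p6, and all lie on the minus strand of the chromosome. Capitals mark a searched motif. For Abca1 the window is chr4:53159846-53160145, for Apoe chr7:19699139-19699438 and for Pltp chr2:164857659-164857958.
Abca1: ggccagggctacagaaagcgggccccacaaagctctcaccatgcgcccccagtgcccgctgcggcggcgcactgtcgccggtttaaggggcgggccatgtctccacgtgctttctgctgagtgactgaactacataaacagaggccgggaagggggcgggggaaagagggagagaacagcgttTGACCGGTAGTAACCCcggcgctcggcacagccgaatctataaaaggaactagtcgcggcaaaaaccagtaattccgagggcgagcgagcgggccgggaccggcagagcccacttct
Apoe: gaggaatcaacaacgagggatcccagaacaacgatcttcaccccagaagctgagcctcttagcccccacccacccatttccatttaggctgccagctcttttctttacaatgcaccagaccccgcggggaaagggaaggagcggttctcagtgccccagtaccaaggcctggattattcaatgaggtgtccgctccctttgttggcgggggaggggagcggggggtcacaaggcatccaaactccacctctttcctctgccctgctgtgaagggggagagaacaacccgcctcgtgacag
Pltp: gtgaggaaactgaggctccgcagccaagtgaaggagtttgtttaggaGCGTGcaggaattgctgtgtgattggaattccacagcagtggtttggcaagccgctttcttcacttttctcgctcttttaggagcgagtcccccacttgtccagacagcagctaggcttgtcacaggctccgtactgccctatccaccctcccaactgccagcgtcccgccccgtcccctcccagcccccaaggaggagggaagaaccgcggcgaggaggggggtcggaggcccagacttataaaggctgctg

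On both strands, 3 motifs were searched: GCGTG, the DR4 repeat of LXR with RXR (AGGTCA, 4 bases of any kind, AGGTCA) with up to 3 mismatches among its 12 fixed letters, and TCACGTG, an E-box of lysosomal genes. Of the 9 genes, 7 had a window (10 windows in all). In the Abca1 window, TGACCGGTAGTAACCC matched the repeat on the opposite strand with 3 mismatches, its first base lying at -67, where the first transcribed base is 0. The matches did not overlap one another. The repeat at that allowance is in 21.9% of all 32851 windows. GCGTG was found in the Pltp window, at -203, and in those of Soat1 and Npc2, and in 32.4% of all windows. The Apoe windows held none of the motifs, and no window of these genes held TCACGTG, which is in 3.77% of all windows. Sites outside the windows were not searched, so a window without a motif does not show that the gene lacks one.

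The recovered depth was 10312744 to 26454659 reads per library. At this depth the genes rested on 344 reads (Nr1h3, resident replicate 2) to 546136 reads (Apoe, resident replicate 1), approximate for Abcg1, Lipa and Npc2. Ahr itself was at 10.4 ± 0.785 FPKM in cKO-labelled TAM, 7.18 ± 0.309 in control TAM and 4.19 ± 0.261 in resident macrophages (SD). A gene-level value also counts exons that Cre leaves, so it does not check the deletion. All 13 macrophage markers were detected in every group, and their sum was 27530 to 28067 FPKM in cKO-labelled TAM, 33789 to 34100 in control TAM and 49234 to 50562 in resident macrophages. The C1q subunit gene C1qb and Lyz2 were the most abundant of them, Lyz2 at 11460 ± 203, 19904 ± 85.1 and 28140 ± 477 FPKM in the same order. Without Lyz2, whose locus carries the Cre, the other 12 markers summed to 16028 to 16430 FPKM in cKO-labelled TAM, 13859 to 14284 in control TAM and 21450 to 22879 in resident macrophages, so the order of the TAM groups turned round and was then that of Apoe and Pltp. Of the 13 markers, 5 were higher and 6 lower in cKO-labelled than in control TAM (median log2 change 0.03), against 20.5% and 19.1% of all genes tested. C1qb was at 5708 ± 96.3 FPKM in cKO-labelled TAM and 4733 ± 83.5 in control TAM. C1qa, C1qb and C1qc, all higher in cKO-labelled TAM, made up most of the sum without Lyz2. Among the lower ones were Csf1r, at 454 FPKM in cKO-labelled and 534 in control TAM, and Adgre1, at 497 and 590. In such bulk samples, fewer cells of a type and less RNA per cell cannot be told apart.

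**Figure D1:**
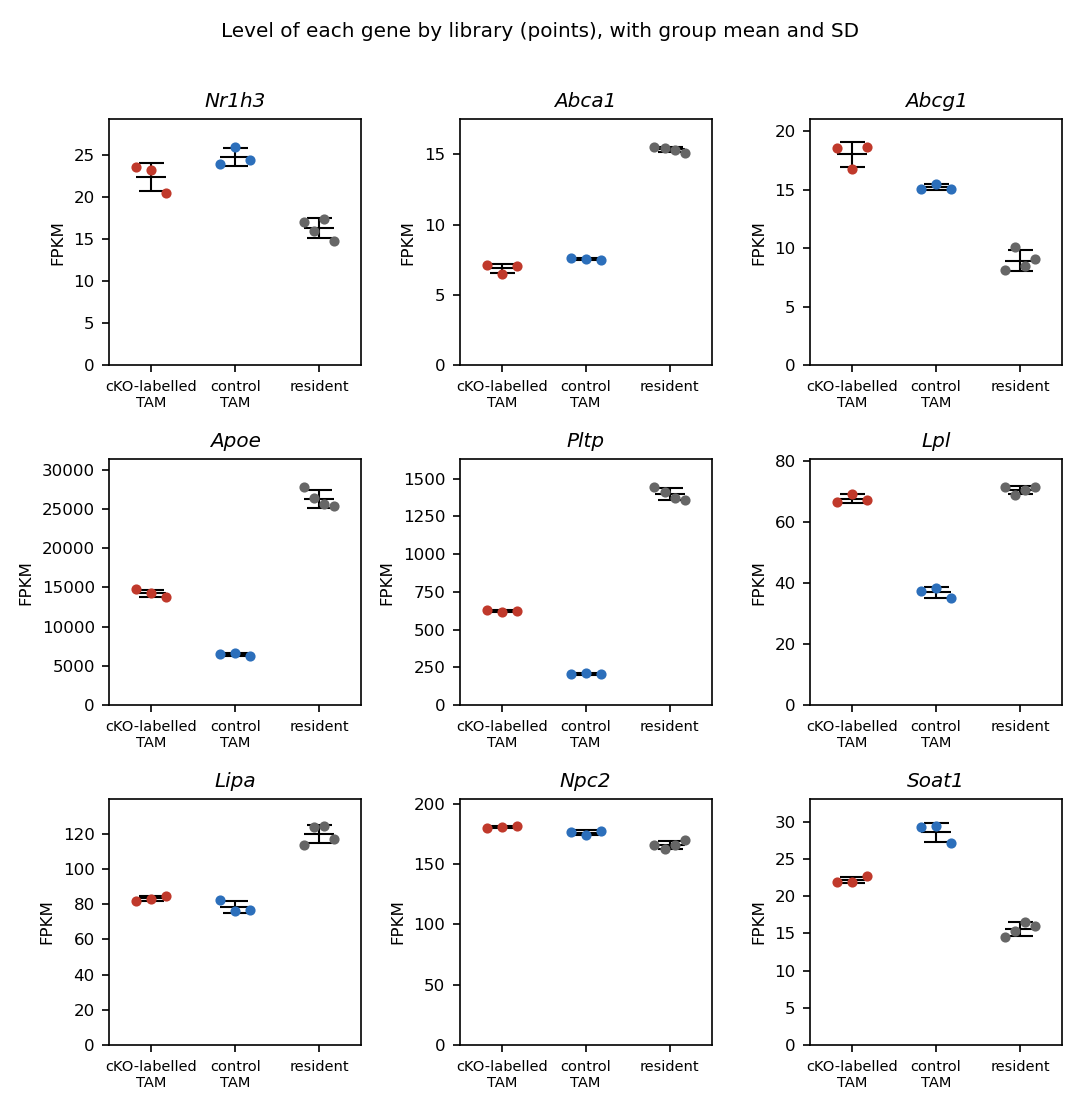
FPKM of the 9 genes (linear axes from 0) in each library of cKO-labelled TAM, control TAM and resident macrophages. Points are libraries and bars are group means with SD. Apoe, Pltp and Lpl are lowest in control TAM, and Abca1 and Lipa are highest in resident macrophages.

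Control TAM were set against resident macrophages to ask how the tumour macrophages differ from those of the healthy pancreas. All 9 genes passed the threshold, with 4 higher and 5 lower in control TAM. Of all 11127 genes tested, 77.1% passed (39% higher and 38.1% lower), so a pass alone says little about these genes. No library of either group reached into the range of the other for any of the 9, as was so for 73.9% of all genes. The median log2 change was -0.60 over the 9 genes and 0.00 over all genes. The tests are limma on log2(FPKM + 1) over all genes with Benjamini-Hochberg adjustment, and log2 changes are on that scale.

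cKO-labelled TAM were set against control TAM to ask what changes with the deletion label. Here 4 of the 9 genes were higher (Apoe, Pltp, Lpl and Abcg1) and 1 was lower (Soat1), against 20.5% and 19.1% of all genes (39.6% in all). The groups did not overlap for 8 of the 9 genes, and for 51.4% of all genes. The median log2 change was 0.09 over the 9 genes and 0.01 over all genes. When each library was rescaled to a common total, 3 of the 9 were higher (Apoe, Pltp and Lpl) and 3 lower (Soat1, Nr1h3 and Abca1). That rescaling moved the median of all genes to -0.05 and the share of calls that were higher to 32.9%, against 51.8% as deposited. Only 39 of the 11127 genes had a higher log2 change than Pltp, 81 than Apoe and 147 than Lpl.

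Nr1h3, the oxysterol sensor LXRα, lies on chromosome 2 (91184061 to 91202834, minus strand, GRCm38). It was at 23.5, 23.2 and 20.5 FPKM in cKO-labelled TAM, 24.0, 26.0 and 24.5 FPKM in control TAM, and 17.1, 16.0, 17.4 and 14.8 FPKM in resident macrophages. Both TAM groups lay above every resident library. The level was 1.52-fold higher in control TAM than in resident cells (log2 change 0.58 ± 0.06 SE, limma adjusted p = 3.64e-07). Between cKO-labelled and control TAM the log2 change was -0.14 (95% interval -0.28 to -0.0022, not adjusted for the number of genes), with a limma adjusted p of 0.0984. It passed as lower when libraries were rescaled to a common total (log2 change -0.22, limma adjusted p = 0.0142).

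Abca1, the transporter that loads cholesterol and phospholipid onto lipid-poor apolipoproteins (chromosome 4, 53030787 to 53159895, minus strand), differed from resident macrophages in the opposite direction to Nr1h3 in both kinds of TAM. It was at 7.10, 6.51 and 7.05 FPKM in cKO-labelled TAM, 7.65, 7.55 and 7.51 FPKM in control TAM, and 15.6, 15.4, 15.3 and 15.1 FPKM in resident macrophages. The resident libraries were well clear of both TAM groups, and every cKO-labelled library was below every control library by a small step. The level in control TAM was 0.493 times that in resident macrophages (log2 change -0.93 ± 0.05 SE, limma adjusted p = 1.08e-10). Between cKO-labelled and control TAM the log2 change was -0.12 (limma adjusted p = 0.0970), and -0.19 after rescaling to a common total (limma adjusted p = 0.0163).

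Abcg1, which exports sterol to mature HDL (chromosome 17, 31057675 to 31117988, plus strand), was at 18.6, 16.8 and 18.7 FPKM in cKO-labelled TAM, 15.1, 15.5 and 15.1 FPKM in control TAM, and 8.11, 10.1, 8.45 and 9.05 FPKM in resident macrophages. The 3 groups did not overlap, with cKO-labelled TAM highest and resident macrophages lowest. It was 1.70-fold higher in control TAM than in resident cells (log2 change 0.71 ± 0.07 SE, limma adjusted p = 7.33e-08). In cKO-labelled against control TAM it was higher by a log2 change of 0.23 ± 0.07 SE (limma adjusted p = 0.0181). That call was lost after rescaling to a common total (limma adjusted p = 0.109), without control TAM replicate 1 (0.0508), without cKO-labelled TAM replicate 1 (0.0625) and without cKO-labelled TAM replicate 3 (0.0696).

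The balance of the transporters therefore differed in every group. The ratio of Abcg1 to Abca1 FPKM was 2.62 ± 0.0348 in cKO-labelled TAM, 2.01 ± 0.0441 in control TAM and 0.582 ± 0.0584 in resident macrophages (SD). Resident macrophages held more Abca1 than Abcg1 on the FPKM scale, and both TAM groups held more Abcg1. The comparison between the genes depends on the lengths the authors used, but the differences between groups do not.

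Apoe, the secreted apolipoprotein that accepts effluxed cholesterol (chromosome 7, 19696109 to 19699188, minus strand), was among the most abundant transcripts. It was at 14730, 14241 and 13822 FPKM in cKO-labelled TAM, 6464, 6654 and 6243 FPKM in control TAM, and 27841, 26403, 25585 and 25303 FPKM in resident macrophages. The groups were far apart, with control TAM lowest and resident macrophages highest. By mean FPKM, Apoe ranked 3 of 12535 genes in cKO-labelled TAM, 4 in control TAM and 2 in resident macrophages, and made up 2.93% ± 0.110, 1.40% ± 0.0478 and 4.91% ± 0.158 of all FPKM in the same groups (SD).

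The Apoe level in control TAM was 0.246 times that in resident macrophages (log2 change -2.03 ± 0.03 SE, limma adjusted p = 2.23e-17). In cKO-labelled TAM it was 2.21-fold higher than in control TAM (log2 change 1.14 ± 0.04 SE, limma adjusted p = 1.42e-12) and 0.543 times that in resident macrophages (log2 change -0.88 ± 0.03 SE). Quantile normalization, which gives the most abundant genes of all libraries the same values, left log2 changes of -0.83 for control TAM against resident and 0.64 for cKO-labelled against control TAM. For cKO-labelled TAM against resident macrophages it left -0.19, which did not pass (limma adjusted p = 0.0613).

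Pltp, the phospholipid transfer protein that remodels lipid particles (chromosome 2, 164839518 to 164857711, minus strand; its promoter window is above), followed Apoe with a larger range. It was at 631, 614 and 626 FPKM in cKO-labelled TAM, 204, 210.5 and 203 FPKM in control TAM, and 1448, 1415, 1370 and 1361 FPKM in resident macrophages. No group overlapped another. It was 0.147 times as high in control TAM as in resident macrophages (log2 change -2.76 ± 0.03 SE, limma adjusted p = 3.77e-20) and 3.03-fold higher in cKO-labelled than in control TAM (log2 change 1.59 ± 0.03 SE, limma adjusted p = 2.17e-15). In cKO-labelled TAM it remained at 0.446 times the resident level (log2 change -1.16, limma adjusted p = 2.79e-15). The 3′ end of Pltp overlaps Ctsa, a lysosomal protease gene on the other strand, and the unstranded libraries cannot assign reads there. Ctsa was at 437 ± 5.38 FPKM in cKO-labelled TAM, 468 ± 9.38 in control TAM and 499 ± 12.6 in resident macrophages (SD), a far narrower range than that of Pltp.

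Lpl, the lipase that frees fatty acids from lipoprotein triglyceride (chromosome 8, 68880491 to 68907448, plus strand), was at 66.5, 69.3 and 67.2 FPKM in cKO-labelled TAM, 37.2, 38.5 and 35.0 FPKM in control TAM, and 71.4, 68.8, 70.4 and 71.6 FPKM in resident macrophages. Control TAM stood apart, and the other groups overlapped. Its level in control TAM was 0.523 times that in resident macrophages (log2 change -0.92 ± 0.04 SE, limma adjusted p = 2.61e-12). In cKO-labelled TAM it was 1.83-fold higher than in control TAM (log2 change 0.86 ± 0.04 SE, limma adjusted p = 2.66e-10). Between cKO-labelled TAM and resident macrophages the log2 change was -0.06 (95% interval -0.14 to 0.02, limma adjusted p = 0.168). That last value depended on the scaling: it was 0.073 after rescaling to a common total, and passed as lower under quantile normalization (log2 change -0.15, limma adjusted p = 0.00208) and median-of-ratios scaling (-0.09, limma adjusted p = 0.0417).

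**Figure D2:**
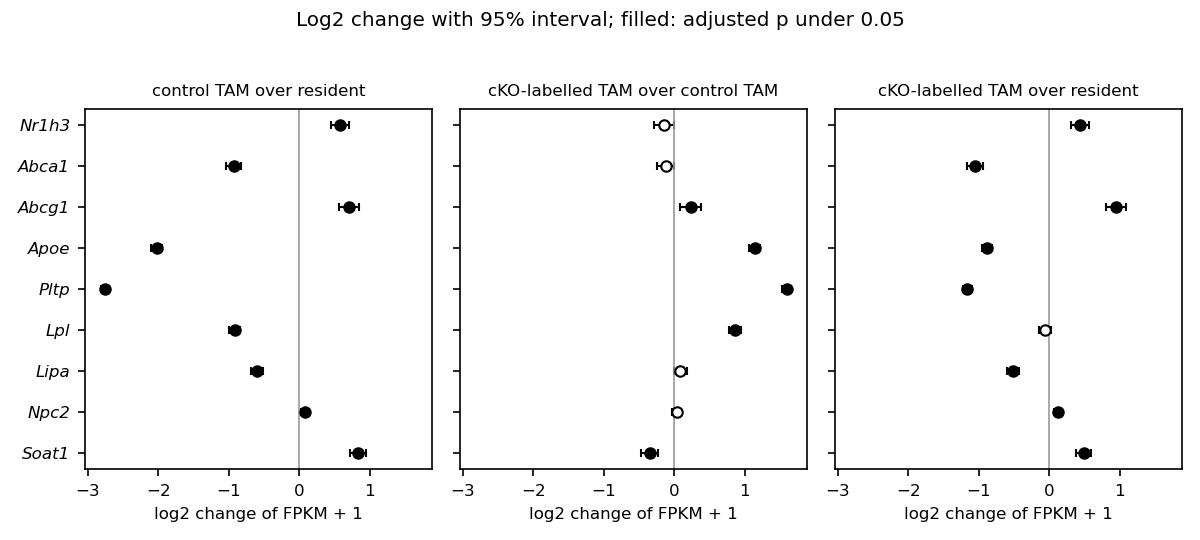
Log2 change of FPKM + 1 with its 95% interval for the 9 genes in each comparison. Filled points passed a limma adjusted p of 0.05. Apoe, Pltp and Lpl lie left of 0 for control TAM over resident and right of 0 for cKO-labelled TAM over control TAM.

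Lipa, the lysosomal acid lipase (chromosome 19, 34492318 to 34527474, minus strand), was at 81.8, 83.2 and 84.7 FPKM in cKO-labelled TAM, 82.4, 76.2 and 76.7 FPKM in control TAM, and 114, 124, 124 and 117 FPKM in resident macrophages. The TAM groups overlapped and every resident library was above them. The level in control TAM was 0.655 times that in resident macrophages (log2 change -0.60 ± 0.04 SE, limma adjusted p = 9.58e-10). For cKO-labelled against control TAM the log2 change was 0.09 (95% interval -0.0057 to 0.18, limma adjusted p = 0.127).

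Npc2, the soluble sterol carrier of the lysosome (chromosome 12, 84754562 to 84773152, minus strand), was the steadiest of the 9. It was at 179.6, 180.6 and 181 FPKM in cKO-labelled TAM, 176, 174 and 178 FPKM in control TAM, and 166, 163, 166 and 170.2 FPKM in resident macrophages. The groups did not overlap but lay close together. It was 1.06-fold higher in control TAM than in resident cells (log2 change 0.09, limma adjusted p = 0.0113), a call lost under quantile normalization (limma adjusted p = 0.860) and with no variance trend (0.0666). For cKO-labelled against control TAM the log2 change was 0.03 (limma adjusted p = 0.378), and -0.044 after rescaling to a common total.

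Soat1, which esterifies cholesterol for storage in lipid droplets (chromosome 1, 156424525 to 156474331, minus strand), was at 22.0, 22.0 and 22.7 FPKM in cKO-labelled TAM, 29.3, 29.4 and 27.1 FPKM in control TAM, and 14.5, 15.4, 16.6 and 15.9 FPKM in resident macrophages. The 3 groups did not overlap, and control TAM were highest. It was 1.83-fold higher in control TAM than in resident cells (log2 change 0.84 ± 0.05 SE, limma adjusted p = 3.78e-10). In cKO-labelled TAM it was 0.777 times the control TAM level (log2 change -0.35 ± 0.05 SE, limma adjusted p = 0.000136). The ratio of Soat1 to Lipa FPKM, the esterifying to the ester-splitting enzyme gene, was 0.267 ± 0.00253 in cKO-labelled TAM, 0.365 ± 0.0181 in control TAM and 0.130 ± 0.00556 in resident macrophages (SD).

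cKO-labelled TAM were also set against resident macrophages. In this comparison 4 of the 9 genes were higher (Nr1h3, Abcg1, Soat1 and Npc2) and 4 lower (Apoe, Pltp, Abca1 and Lipa), against 40.2% and 37.2% of all genes (77.4% in all). The groups did not overlap for 8 of the 9, and for 75.5% of all genes. The Npc2 call (log2 change 0.12, limma adjusted p = 0.00105) was lost under quantile normalization (limma adjusted p = 0.599). Each pair of comparisons shares a group of libraries, so their directions are not independent of each other.

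**Figure D3:**
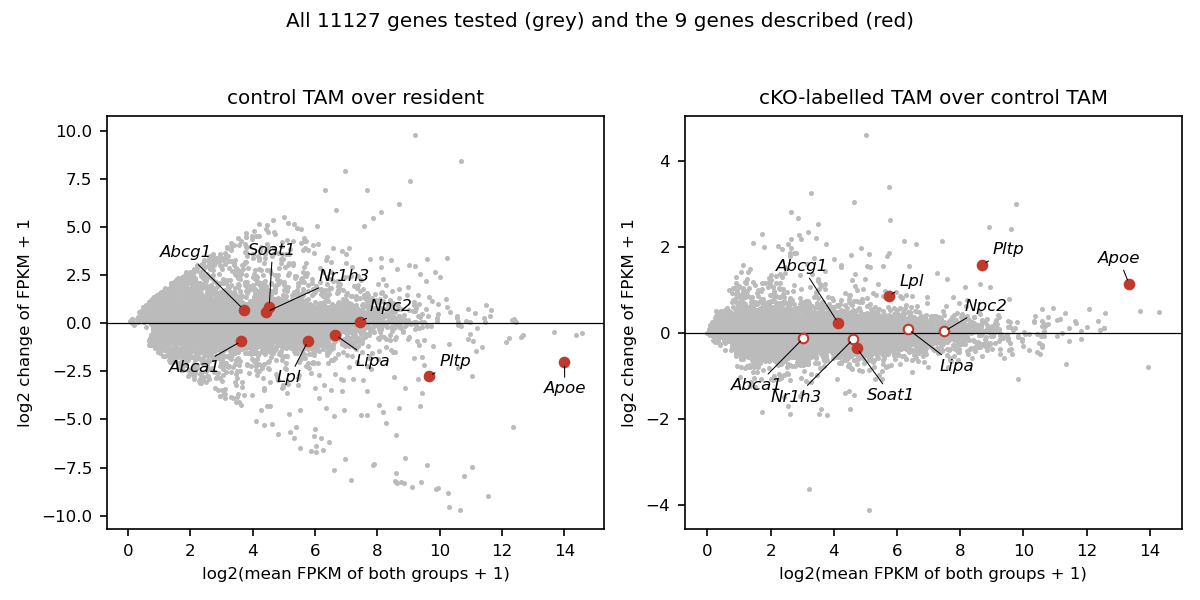
Log2 change of FPKM + 1 against log2 of the mean FPKM + 1 of both groups compared, for all 11127 genes tested (grey) and the 9 genes described (red, filled where the limma adjusted p was under 0.05). Apoe lies at the abundant end of both plots, below 0 for control TAM over resident and above 0 for cKO-labelled TAM over control TAM.

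Over the 10 libraries, the Apoe profile on the log2(FPKM + 1) scale had a Pearson r of 0.92 with Lpl, 0.89 with Lipa and 0.79 with Abca1. It ran opposite to Soat1 (r = -0.98), Nr1h3 (-0.89), Abcg1 (-0.70) and Npc2 (-0.66). These values describe 3 groups that share library preparation and scaling. Among 5052 genes with a mean of at least 10 FPKM, Pltp was the most like Apoe (r = 0.999). It was followed by Rcn3, which encodes a calcium-binding protein of the secretory pathway, the C-type lectin gene Cd209f, the gelatinase gene Mmp9 and the complement gene C6, with r from 0.998 to 0.999. Rcn3 was at 53.1 ± 2.50 FPKM in cKO-labelled TAM, 14.1 ± 0.820 in control TAM and 167 ± 7.70 in resident macrophages (SD). Cd209f was at 61.3 ± 2.46 FPKM in cKO-labelled TAM, 1.54 ± 0.140 in control TAM and 773 ± 14.1 in resident macrophages. The range of Cd209f was thus far wider than that of Apoe, with the same order of groups.

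Other genes of the sterol pathway were read from the same fit. Of all genes, 39% were higher and 38.1% lower in control TAM than in resident cells. In cKO-labelled against control TAM these shares were 20.5% and 19.1%. The list counts here and below are to be read beside these shares. Of 7 LXR partners and cofactors, 1 was higher and 6 were lower in control TAM than in resident cells (median log2 change -0.38), and 1 was higher and 2 lower in cKO-labelled than in control TAM (median 0.07). The heterodimer partner gene Rxra was at 7.04 ± 0.278 FPKM in cKO-labelled TAM, 7.56 ± 0.434 in control TAM and 11.4 ± 0.645 in resident macrophages. Nrip1, a corepressor and coactivator of nuclear receptors, was highest in control TAM, at 9.05 ± 0.204 FPKM in cKO-labelled TAM, 14.6 ± 0.705 in control TAM and 7.85 ± 0.356 in resident macrophages. Both calls between control TAM and resident macrophages went the way of these means, at log2 changes of -0.53 for Rxra and 0.81 for Nrip1. Without control TAM replicate 3, or without cKO-labelled TAM replicate 1, the 3 calls in cKO-labelled against control TAM became 1.

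Of 10 tested other LXR target genes, 6 were higher and 3 lower in control TAM than in resident cells (median log2 change 0.38), whereas 1 was higher and 5 were lower in cKO-labelled than in control TAM (median -0.16). Scd2, a fatty acid desaturase gene, was at 12.2 ± 0.383 FPKM in cKO-labelled TAM, 18.6 ± 0.358 in control TAM and 1.00 ± 0.186 in resident macrophages. Cd5l, a secreted macrophage survival protein gene, was at 354 ± 5.91, 428 ± 6.60 and 139 ± 3.42 FPKM in the same order of groups. Srebf1, the regulator of fatty acid synthesis, was at 22.3 ± 2.09 FPKM in cKO-labelled TAM, 26.5 ± 0.908 in control TAM and 14.9 ± 1.02 in resident macrophages. Mertk, a receptor for dying cells, was lowest in cKO-labelled TAM, at 17.3 ± 0.374 FPKM against 24.3 ± 0.733 in control TAM and 34.9 ± 1.31 in resident macrophages. The known LXR targets thus differed among themselves in direction, in the same libraries in which Apoe, Pltp and Lpl were higher in cKO-labelled than in control TAM.

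Of the other apolipoprotein and lipoprotein receptor genes, 4 were tested. In control TAM against resident macrophages 3 were higher and 0 lower, and in cKO-labelled against control TAM 0 were higher and 2 lower. Apoc1, the apolipoprotein gene next to Apoe on chromosome 7 (19689481 to 19692660, minus strand), moved against Apoe. It was at 5.54, 3.93 and 5.50 FPKM in cKO-labelled TAM, 12.4, 12.3 and 12.02 FPKM in control TAM, and 8.50, 8.67, 7.31 and 8.50 FPKM in resident macrophages, with no overlap of groups. Its log2 change was -1.15 for cKO-labelled against control TAM (limma adjusted p = 2.13e-07) and 0.52 for control TAM against resident macrophages (7.36e-05).

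Lpl depends on helpers for folding and anchoring. Of 6 Lpl partner genes, 1 was higher and 2 were lower in cKO-labelled than in control TAM (1 and 4 after rescaling to a common total), and 1 was higher and 2 were lower in control TAM than in resident cells. Sel1l, which helps Lpl leave the endoplasmic reticulum, was at 21.4 ± 0.366 FPKM in cKO-labelled TAM, 26.8 ± 0.415 in control TAM and 27.5 ± 1.11 in resident macrophages. Angptl4, a secreted Lpl inhibitor, was at 5.57 ± 0.153 FPKM in cKO-labelled TAM, 6.91 ± 0.0582 in control TAM and 17.3 ± 1.34 in resident macrophages. The partner that was higher in cKO-labelled than in control TAM was Gpihbp1, which anchors Lpl on capillary endothelium. It was at 1.68 ± 0.328 FPKM in cKO-labelled TAM, 0.0893 ± 0.0626 in control TAM and 0.102 ± 0.0899 in resident macrophages, and was named after its values were seen. Gpihbp1 reached 1 FPKM only in the cKO-labelled libraries, so it passed the filter through that group alone. Its direction was thus set by the filter, and its call adds nothing to the count.

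Among 10 tested lysosomal sterol export genes, 5 were higher and 4 lower in control TAM than in resident cells, and 2 were higher and 4 lower in cKO-labelled than in control TAM. Scarb2, a lysosomal membrane protein that can carry cholesterol, was at 43.4 ± 0.755 FPKM in cKO-labelled TAM, 54.5 ± 1.22 in control TAM and 29.2 ± 1.45 in resident macrophages. Gramd1a, which moves sterol from the plasma membrane to the endoplasmic reticulum, ran the other way, at 31.8 ± 0.897 FPKM in cKO-labelled TAM, 25.3 ± 1.65 in control TAM and 40.6 ± 0.750 in resident macrophages. Of 5 tested ester and efflux genes, 2 were higher and 3 lower in control TAM than in resident cells, and 2 were higher and 1 lower in cKO-labelled than in control TAM. Without resident replicate 4, the 5 calls between control TAM and resident macrophages became 3. Ces1d, called lower in control TAM than in resident macrophages, passed the filter through the resident libraries alone. Nceh1, a neutral cholesterol ester hydrolase, was at 13.4 ± 0.386 FPKM in cKO-labelled TAM, 16.3 ± 0.525 in control TAM and 14.7 ± 0.579 in resident macrophages.

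The oxysterol list holds enzymes that make or convert oxysterols and a receptor that senses them. Of 4 genes tested, 2 were higher and 0 lower in cKO-labelled than in control TAM, and 2 were higher and 2 lower in control TAM than in resident cells. Cyp27a1, the 27-hydroxylase of cholesterol (chromosome 1, 74713574 to 74737892, plus strand), was at 61.7 ± 1.88 FPKM in cKO-labelled TAM, 34.1 ± 1.96 in control TAM and 263 ± 6.41 in resident macrophages. Its log2 change was 0.84 for cKO-labelled against control TAM (limma adjusted p = 6.44e-10) and -2.91 for control TAM against resident macrophages (1.59e-18), the same order of groups as Apoe. Gpr183, a receptor for dihydroxylated oxysterols, was at 12.9 ± 0.545 FPKM in cKO-labelled TAM, 9.37 ± 0.202 in control TAM and 21.9 ± 0.987 in resident macrophages.

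**Figure D4:**
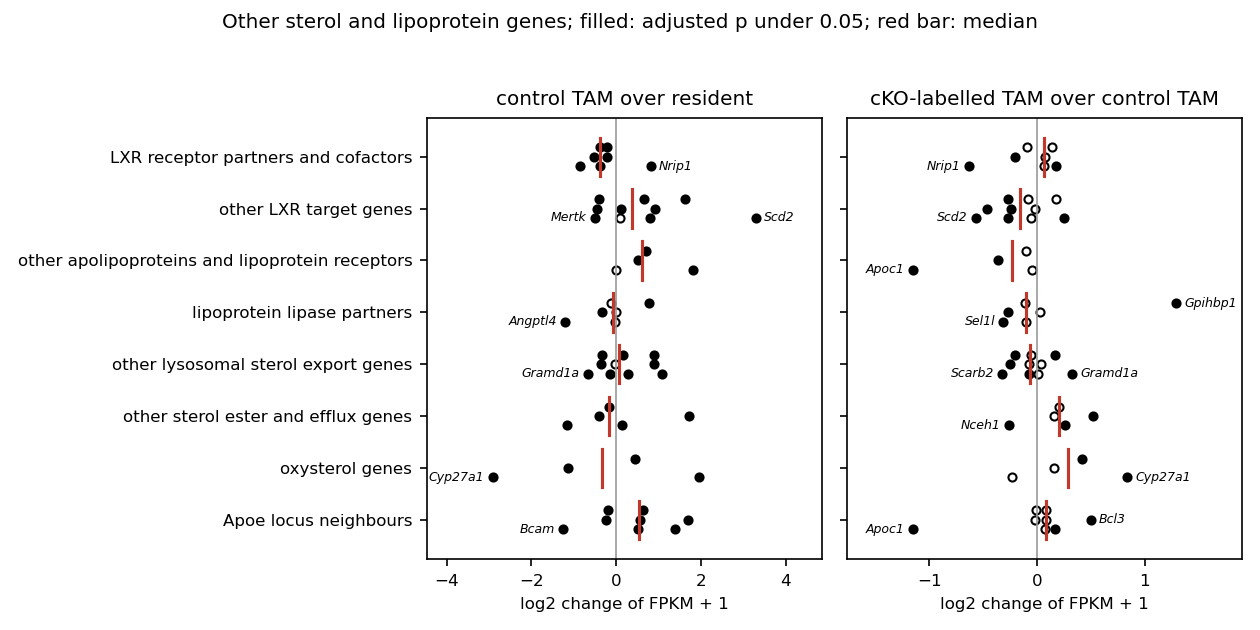
Log2 change of FPKM + 1 of every tested gene in 8 lists of sterol and lipoprotein genes (points, filled where the limma adjusted p was under 0.05), with the list median in red and some of the lowest and highest genes named. Cyp27a1 is lower in control TAM than in resident cells and higher in cKO-labelled than in control TAM, and Apoc1 is lower in cKO-labelled than in control TAM.

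Markers of other cells moved with the same comparisons. The acinar list summed to 440 to 459 FPKM in cKO-labelled TAM, 115 to 124 in control TAM and 34796 to 36960 in resident macrophages, with 21 of 22 tested members higher in cKO-labelled than in control TAM and all 22 lower in control TAM than in resident cells. The endothelial list summed to 33.0 to 34.6, 8.80 to 10.4 and 3.36 to 3.91 FPKM in the same order of groups, with 5 of 5 tested members higher in cKO-labelled than in control TAM. The B and plasma cell list summed to 238 to 242, 85.5 to 94.5 and 891 to 909 FPKM, and the dendritic cell list to 59.9 to 61.5, 30.9 to 31.6 and 130.2 to 145 FPKM. Of 5 tested members of either list, 3 were higher and 0 lower in cKO-labelled than in control TAM. Acinar, B cell and dendritic cell sums thus had the order of groups that Apoe and Pltp had. The neutrophil list, of which Mmp9 is a member, summed to 1627 to 1788, 1287 to 1314 and 359 to 368 FPKM, and the eosinophil list to 132 to 133, 88.7 to 91.7 and 45.7 to 59.5 FPKM. In control TAM against resident macrophages, 7 of 9 neutrophil genes were higher and 1 lower. Of 5 eosinophil genes, 4 were higher and 1 lower. The lower ones, Mmp9 and Ear2, held most of the resident sums. Mmp9 was at 123 ± 4.28 FPKM in cKO-labelled TAM, 41.5 ± 0.324 in control TAM and 329 ± 3.73 in resident macrophages (SD). Ear2 was at 28.5 ± 1.20, 14.9 ± 0.348 and 50.7 ± 6.80 FPKM in the same order. The T and NK cell list summed to 22.3 to 24.1, 17.0 to 20.1 and 9.77 to 10.7 FPKM. In cKO-labelled against control TAM, 7 of 9 neutrophil genes were higher and 1 lower, 4 of 5 eosinophil genes were higher, and 5 of 9 T and NK cell genes were higher and 1 lower. Some list genes passed the filter only through the group where they were high, which set their direction. Egfl7, Kdr, Cd3d and Cd8a did so through cKO-labelled TAM, and the acinar genes Ctrc and Cuzd1 through resident macrophages. With at least 5 FPKM required in 3 libraries, 2 endothelial genes and 1 T and NK cell gene were left, all higher in cKO-labelled TAM. Listed at 0 in every library of a group were Amy2a5 and Mzb1 in control TAM and Prg2 in resident macrophages.

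The epithelial list summed to 323 to 336 FPKM in cKO-labelled TAM, 315 to 329 in control TAM and 11.6 to 12.9 in resident macrophages, and the fibroblast list to 136 to 139, 171 to 175 and 40.8 to 44.6 FPKM in the same order. In cKO-labelled against control TAM, 4 of 11 epithelial genes were higher and 1 lower, and 3 of 8 fibroblast genes were higher and 2 lower. Adipocytes make Lpl, and the 4 adipocyte markers with a row summed to 1.71 to 1.80 FPKM in cKO-labelled TAM, 3.17 to 3.87 in control TAM and 8.47 to 10.7 in resident macrophages. Their sum was lower in cKO-labelled than in control TAM, where 1 of the 3 tested was called lower and 0 higher. Adipoq, Lep and Retn had no row, so this low sum is a weak measure of adipocytes. In every TAM library Apoe alone exceeded the summed level of each of these lists of other cell types. In the resident libraries, where it was at 25303 to 27841 FPKM, the acinar sum was larger. Such marker sums do not measure how much Apoe those cells held. The part of these cells in the results was not tested.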

How the data were processed

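RNA-seq of 10 libraries of sorted macrophages was read from 1 table. RNA was extracted with either of a pair of kits (which library had which is not given), amplified with SMART-Seq v4 and made into unstranded Nextera XT libraries, per the labels' protocols. The authors deposited FPKM, 1 column per library; their gene lengths and library scaling: not given in the sources used here. The submitters' processing notes name edgeR, STAR, GRCm38 and mm10 without a role or version.

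From the deposited FPKM, log2(FPKM + 1) was fitted with limma 3.58.1 in R 4.3.3 for 11127 genes with at least 1 FPKM in at least 3 of 10 libraries, in 1 model of the 3 groups (residual degrees of freedom: 7), with a variance trend in the empirical Bayes step. P-values were adjusted over all genes by Benjamini-Hochberg at 0.05. The pseudocount of 1 understates changes of low genes. The fit was tested on simulated data. The alternatives were other pseudocounts, filters and scalings, sample weights, no variance trend, only the 2 groups compared, the replicate number as a block, each library left out and a 2-fold limit.

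Reads were recovered from the FPKM steps with the longest GENCODE M21 transcript as length: 85.8% to 87.1% of values up to 200 reads came out whole within 0.05. Those of Abcg1, Lipa and Npc2 did not, so their read numbers are approximate. Squared differences between same-group libraries were 1.84 to 3.48 times those of counting noise (medians over genes, 12 pairs), so none was entered under a second name. Of 316 genes without a symbol, 312 were named by identifier. Coordinates are GENCODE M21, GRCm38, 1-based. Promoter windows are from RefSeq, GRCm38.p6. No count test was run.

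The members and lists were chosen with earlier results of these data known. Named are all members, per list and comparison up to 4 called genes of at least 10 FPKM in the higher group with the largest change, the 5 genes most like Apoe, and the most abundant pair of each cell type list. Of these the text names part, and some list genes besides, picked after their values were seen. The values of 1 list gene are not reported here.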

Additional observations from a re-analysis of the deposited data

How the results depend on the processing

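Over the 27 log2 changes of the 9 genes, 594 values were recomputed under the alternatives: 576 kept their direction and side of the threshold, 9 lost the call, 6 gained one and 3 reversed. The reversals were uncalled values: Npc2 in cKO-labelled against control TAM (-0.044 when rescaled to a common total and -0.043 when rescaled without acinar genes) and Lpl in cKO-labelled TAM against resident macrophages (0.073 when rescaled). With a 2-fold limit added, 2 of the 9 genes passed in each comparison, and of all genes 1883 passed for control TAM against resident macrophages, 147 for cKO-labelled against control TAM and 1683 for cKO-labelled TAM against resident macrophages. Leaving out each library in turn gave 8237 to 8559, 3496 to 4611 and 8182 to 8646 called genes for these comparisons, and 9, 4 to 5 and 8 of the 9 genes. With the replicate number as a block, 9, 5 and 8 of the 9 genes and 8396, 4342 and 8437 of all genes were called, against 8577, 4410 and 8612 without it. The samples share only a number: deviations of same-numbered control and cKO-labelled TAM libraries correlated at 0.00, -0.04 and 0.09. Rescaling to a common total raised the share of higher calls to 65.9% for control TAM against resident macrophages (50.6% as deposited), with the median of all genes at 0.18, and to 61.6% for cKO-labelled TAM against resident macrophages (52.0% as deposited). Of 1254 recomputed list counts, 27 moved by more than 1.5 times. The cause of these shifts was not tested. Depth limits the lower genes most: Nr1h3 rested on 344 reads in resident replicate 2.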

Other observations

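The genes around Apoe on chromosome 7 moved in different directions. Of 8 tested neighbours, 5 were higher and 3 lower in control TAM than in resident macrophages, and 2 were higher and 1 was lower in cKO-labelled than in control TAM. In cKO-labelled against control TAM, 1 higher and 1 lower were left after rescaling to a common total, under quantile normalization, without control TAM replicate 3 and without cKO-labelled TAM replicate 1. Bcl3, an IkB family cofactor of NF-kB, was at 93.6 ± 3.58 FPKM in cKO-labelled TAM, 66.0 ± 2.56 in control TAM and 44.4 ± 2.18 in resident macrophages (SD). Its log2 change was 0.50 for cKO-labelled against control TAM (limma adjusted p = 9.06e-07). Tomm40, a subunit gene of the mitochondrial import pore, was at 31.9 ± 1.06 FPKM in cKO-labelled TAM, 30.1 ± 1.49 in control TAM and 19.0 ± 1.22 in resident macrophages. Relb, an NF-kB subunit gene, was called in the directions of Apoe in both comparisons, at 26.4 ± 1.20 FPKM in cKO-labelled TAM, 23.4 ± 1.40 in control TAM and 27.8 ± 0.879 in resident macrophages. Its log2 changes were far smaller, at 0.17 for cKO-labelled against control TAM (limma adjusted p = 0.0211) and -0.24 for control TAM against resident macrophages (0.000387). Bcam, a laminin receptor gene, was at 23.0 ± 0.540 FPKM in cKO-labelled TAM, 21.7 ± 0.595 in control TAM and 53.3 ± 3.93 in resident macrophages. These means have the order of the Apoe means, and the log2 change of Bcam for cKO-labelled against control TAM was 0.08 (limma adjusted p = 0.281).

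The ratio of Apoe to Pltp FPKM was 22.9 ± 0.688 in cKO-labelled TAM, 31.4 ± 0.549 in control TAM and 18.8 ± 0.292 in resident macrophages (SD), with no overlap of groups, so the pair was not proportional although their r was 0.999.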
